A study of Homo sapiens with 8 samples.

Results

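The genes described here are the matrix metalloproteinases MMP1, MMP2, MMP10 and MMP14, their tissue inhibitors TIMP1, TIMP2 and TIMP3, and the related proteases ADAMTS1, ADAM10 and ADAM17. They were chosen by name, as the rows of these symbols in the deposited table. Of the 10 names, 9 had a row among the 16153 genes of the table, and all 9 passed the filter on low values. MMP10 was not analysed here.

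RNA was sequenced from HMEC-1, an immortalised line of human dermal microvascular endothelial cells, grown on gelatin-coated coverslips inside automated culture units. The space_microg group (3 libraries) was kept in weightlessness in an incubator on the International Space Station. The space_1g group (2 libraries) flew in the same incubator but turned in its centrifuge at 1 g, and the ground group (3 libraries) travelled back by airliner and was kept in a matching facility on Earth, with activation and medium changes at the same times as in orbit. All groups share 1 cell line, the medium, the culture units and fixation in an RNA-preserving reagent. Nothing in the labels tells whether the libraries of a group were grown as separate cultures, and the p-values below therefore reflect a spread among libraries that may be technical.

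Matrix metalloproteinases are zinc proteases that are made as inactive precursors and, once activated, cut collagens and other matrix proteins, which endothelial cells need in order to leave a vessel and form a sprout. TIMPs bind the active site of these enzymes and block it. ADAM10 and ADAM17 sit in the cell membrane and cut off the outer parts of other membrane proteins, a step called shedding. TIMP3 differs from its relatives in that it stays bound to the matrix and also blocks ADAM17 and the ADAMTS proteases.

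Promoter sequences of the members, from 250 bases before to 50 bases after the annotated start, were found in RefSeq (build GRCh38.p14) for 5 of the 9: MMP14, TIMP1, TIMP3, ADAM10 and ADAM17. Of these, 3 are shown because their genes are those of the main patterns below. TIMP3 (chr22:32801455-32801754, plus strand) had the smallest unadjusted p of the 9 genes between space_microg and ground, and TIMP1 (chrX:47582186-47582485, plus strand) and MMP14 (chr14:22836335-22836634, plus strand) had their highest values in the same 2 libraries. Capitals mark GC boxes (GGGCGG on either strand, a motif bound by the SP family) and, in TIMP1, the sequence TGAGTAA, a variant of the motif of the AP-1 transcription factor known from this promoter.
TIMP3: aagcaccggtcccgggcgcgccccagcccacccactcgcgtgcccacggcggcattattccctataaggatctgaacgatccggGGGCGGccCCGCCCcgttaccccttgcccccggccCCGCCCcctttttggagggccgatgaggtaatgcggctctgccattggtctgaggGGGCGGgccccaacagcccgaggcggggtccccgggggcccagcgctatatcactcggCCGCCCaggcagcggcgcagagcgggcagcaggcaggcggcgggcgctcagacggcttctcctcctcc
TIMP1: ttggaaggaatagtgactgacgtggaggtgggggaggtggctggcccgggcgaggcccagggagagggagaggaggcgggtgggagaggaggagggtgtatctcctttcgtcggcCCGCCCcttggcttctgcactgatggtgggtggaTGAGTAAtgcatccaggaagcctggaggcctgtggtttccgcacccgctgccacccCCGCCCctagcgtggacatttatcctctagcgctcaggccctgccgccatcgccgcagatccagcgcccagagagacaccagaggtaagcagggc
MMP14: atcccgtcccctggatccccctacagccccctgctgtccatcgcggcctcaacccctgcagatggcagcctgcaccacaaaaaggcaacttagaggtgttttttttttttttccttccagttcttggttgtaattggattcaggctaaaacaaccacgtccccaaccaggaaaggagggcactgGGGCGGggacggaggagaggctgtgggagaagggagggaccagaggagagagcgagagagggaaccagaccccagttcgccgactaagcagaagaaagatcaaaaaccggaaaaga
The TGAGTAA match in TIMP1 began 101 bases before the start, and 2.62% of 27305 RefSeq promoters of the same length held this sequence on either strand, as did 1.58% of the 10198 promoters of genes in the table. TIMP3 had 5 GC boxes, TIMP1 had 2 and MMP14 had 1, where 44.6% of all promoters and 70% of those of genes in the table held at least 1. ADAM17 had 3 GC boxes and ADAM10 had 1. The common AP-1 motif TGANTCA (7.76% of all promoters, 4.62% of those of genes in the table) and the TATA box TATAAA (12% and 5.4%) had no match in the 5 windows. A match is a string of letters and not a measured binding site. The motifs searched do not overlap each other in these windows.

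Values are scaled CPM, reads per gene relative to library size after the authors' scaling between libraries. Library depth ran from 24248964 to 35388757 reads in listed genes. All 14 endothelial markers checked, among them PECAM1, CDH5 and VWF, were measured in the table, with CLDN5 at 0.263 to 9.93 CPM and EMCN at 1.04 to 21.5 CPM as the ones with the lowest minima. Of the 8 leukocyte markers only CD14 was measured, at 1.04 to 2.88 CPM. Of the 10 markers of mural cells and fibroblasts 5 were measured, with a summed level of 167 to 337 CPM. The highest of these was COL1A1 at 90.5 to 228 CPM, followed by NOTCH3 at 23.3 to 134 CPM, and the lowest was COL3A1 at 0 to 5.94 CPM. Of the 8 epithelial markers KRT8, KRT18 and KRT19 were measured, with a summed level of 257 to 371 CPM. Along the first principal component of all genes, space_1g replicate 1 (score 60.7) and ground replicate 3 (score 64.7) stood apart from the other 6 libraries (-31.1 to 1.51). Values without these 2 libraries are given beside the results they move most, and the other members' directions that turn are in the closing section.

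Per kilobase of exon (GENCODE v29), TIMP2 had the highest level of the 9 genes, with 129.8 ± 18.2 CPM per kilobase over the 8 libraries (SD), followed by TIMP1 at 105 ± 32.4, MMP14 at 60.5 ± 21 and MMP2 at 28.7 ± 12.1. ADAM10 followed at 18.5 ± 3.67 CPM per kilobase, MMP1 at 16.1 ± 15.7, ADAM17 at 10.9 ± 1.96, TIMP3 at 6.01 ± 2.14 and ADAMTS1 at 0.842 ± 0.394. The order TIMP1 over MMP14 over MMP2 held in all 8 libraries, as did ADAM17 over TIMP3 over ADAMTS1. TIMP2 exceeded TIMP1 in 6 of 8 libraries, MMP2 exceeded ADAM10 in 7 and ADAM10 exceeded MMP1 in 6. MMP1 and ADAM17 could not be ordered, since MMP1 was above ADAM17 in 4 of 8. These levels depend on the exon lengths used, which need not be those of the authors' annotation.

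TIMP3, which lies on chromosome 22 from 32801701 to 32863043 in GRCh38 and codes for the matrix-bound inhibitor, was lower in weightless flight than on the ground but did not pass the test over all genes. It had 19.4, 17.7 and 20.3 CPM in space_microg, 31.7 and 19.1 CPM in space_1g, and 44.2, 36.4 and 32.3 CPM on the ground. All 5 flight libraries lay below all 3 ground libraries, with space_1g replicate 1 at 31.7 CPM just under ground replicate 3 at 32.3 CPM. On the log2(CPM + 1) scale, which understates changes of low genes, the difference between space_microg and ground was -0.93 ± 0.22 (SE), a fold of 0.525. Its unadjusted p in limma was 0.00239, the 13th smallest of 16103 genes, but the Benjamini-Hochberg adjusted p was 0.866, so it did not pass the threshold of 0.05. Between space_1g and ground the limma difference was -0.58 ± 0.24 (unadjusted p = 0.0426, adjusted p = 1), and between space_microg and space_1g it was -0.35 ± 0.24 (unadjusted p = 0.189, adjusted p = 0.912). The comparisons of both flight groups with ground share the ground libraries.

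The space_1g value of TIMP3 rested on single libraries. The difference from ground was -0.23 without space_1g replicate 2 and -0.93 without space_1g replicate 1. With space_1g replicate 1 and ground replicate 3 both removed it was -1.03 ± 0.17 between space_microg and ground (limma adjusted p = 0.173) and -1.03 ± 0.23 between space_1g and ground (limma adjusted p = 0.886), where 12.8% and 5.3% of all genes had an unadjusted p under 0.05. With limma array weights, whose estimation stopped before it converged, the difference between space_microg and ground was -1.15 and passed (adjusted p = 0.00922). Over all alternatives the adjusted p of this difference ran from 0.00922 to 0.999. The summed level of the 14 endothelial markers was 1502 to 2322 CPM in space_microg and 1703 to 1915 CPM in space_1g. On the ground it was 2286 to 2650 CPM. Unlike TIMP3, this sum overlapped between space_microg and ground. Its part in the TIMP3 result was not tested. In bulk RNA, fewer cells that express a gene and less of its RNA per cell cannot be told apart.

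**Figure D1:**
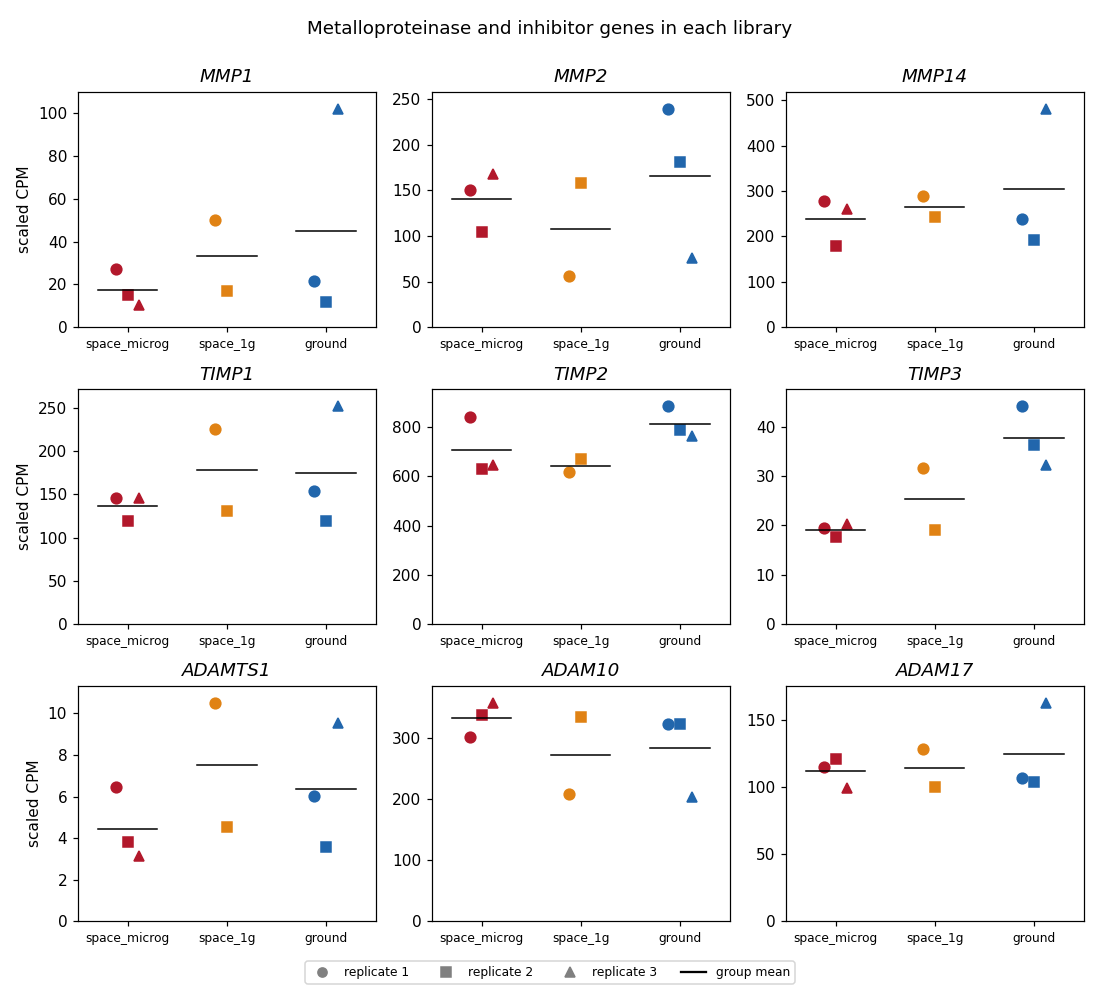
Scaled CPM (vertical axis, starting at 0) of the 9 genes in each of the 8 libraries, by group; symbols are replicates and the black line is the group mean. TIMP3 lies at 17.7 to 31.7 CPM in the 5 flight libraries and at 32.3 to 44.2 CPM on the ground, whereas MMP1, MMP14, TIMP1, ADAMTS1 and ADAM17 are highest in space_1g replicate 1 and ground replicate 3.

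TIMP2, on chromosome 17 from 78852977 to 78925387, codes for a secreted inhibitor that also helps MMP14 to activate MMP2. It had 842, 631 and 648 CPM in space_microg, 618 and 669.8 CPM in space_1g, and 886, 788 and 765 CPM on the ground. Both space_1g libraries lay below all ground libraries, while space_microg replicate 1 lay inside the ground range. TIMP2 had the smallest spread of the 9 genes, its highest library being 1.43 times its lowest. The limma differences were -0.21 ± 0.17 between space_microg and ground (adjusted p = 0.866), -0.33 ± 0.19 between space_1g and ground (adjusted p = 1) and 0.12 ± 0.19 between space_microg and space_1g (adjusted p = 0.916). Its exons share 198 bases with CEP295NL on the same strand, a gene with 2.72 to 16.9 CPM.

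TIMP1, on chromosome X from 47582313 to 47586789, codes for the inhibitor that cells make in response to growth factors and inflammation. It had 146, 119 and 146 CPM in space_microg, 226 and 130.3 CPM in space_1g, and 154, 119 and 252 CPM on the ground. The groups overlapped, and space_1g replicate 1 and ground replicate 3 were the highest libraries. The limma differences were -0.29 ± 0.30 between space_microg and ground (adjusted p = 0.882), 0.04 ± 0.33 between space_1g and ground (adjusted p = 1) and -0.33 ± 0.33 between space_microg and space_1g (adjusted p = 0.912). Without both libraries that stand apart the difference between space_microg and ground was 0.01.

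MMP1, the interstitial collagenase that opens fibrillar collagen, lies on chromosome 11 from 102789920 to 102798160 and varied most of the 9 genes. It had 27.0, 15.1 and 10.3 CPM in space_microg, 50.3 and 16.7 CPM in space_1g, and 21.4, 11.9 and 102 CPM on the ground. Its highest library was 9.87 times its lowest, and the high libraries were 1 of flight and 1 of ground. The group means were 17.5 ± 8.6 CPM in space_microg (SD, n = 3), 33.5 ± 23.7 CPM in space_1g (n = 2) and 45.0 ± 49.3 CPM on the ground (n = 3). The limma difference between space_microg and ground was -0.85 ± 0.75 (adjusted p = 0.866) and became 0.02 without ground replicate 3. Between space_1g and ground it was -0.04 ± 0.83 (adjusted p = 1), and between space_microg and space_1g it was -0.81 ± 0.83 (adjusted p = 0.912), or -0.04 without space_1g replicate 1.

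MMP14, a membrane-anchored collagenase that activates MMP2 at the cell surface, lies on chromosome 14 from 22836557 to 22849027. It had 279, 178 and 261 CPM in space_microg, 289 and 242 CPM in space_1g, and 239, 193 and 481 CPM on the ground. Only ground replicate 3 lay far from the rest, and space_1g replicate 1 at 289 CPM was just above space_microg replicate 1. The limma difference between space_microg and ground was -0.26 ± 0.33 (adjusted p = 0.899), with 0.13 without both libraries that stand apart. The space_1g differences were -0.09 ± 0.37 from ground (limma adjusted p = 1) and -0.17 ± 0.37 for space_microg minus space_1g (limma adjusted p = 0.933).

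MMP2, the gelatinase that cuts the collagen of basement membranes, was lowest in the 2 libraries where MMP1 was highest. Its gene lies on chromosome 16 from 55389700 to 55506691. It had 149.9, 104 and 168 CPM in space_microg, 56.2 and 158 CPM in space_1g, and 239, 181 and 75.5 CPM on the ground. Space_1g replicate 1 and ground replicate 3 were the lowest libraries, and the groups overlapped. The limma difference was -0.10 ± 0.48 between space_microg and ground (adjusted p = 0.977), -0.65 ± 0.54 between space_1g and ground (adjusted p = 1) and 0.54 ± 0.54 between space_microg and space_1g (adjusted p = 0.912). Without both libraries that stand apart MMP2 was lower by -0.59 ± 0.21 in space_microg than on the ground (limma unadjusted p = 0.0196, adjusted p = 0.338), with no overlap between the remaining libraries, which held for 33.6% of the 15571 genes then tested. The space_1g difference from ground was 0.09 without space_1g replicate 1.

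ADAMTS1, a secreted protease that cuts the proteoglycan versican, lies on chromosome 21 from 26835747 to 26845409 and was the least abundant of the 9, with 89 to 323 reads per library. It had 6.44, 3.79 and 3.15 CPM in space_microg, 10.5 and 4.53 CPM in space_1g, and 6.04, 3.55 and 9.56 CPM on the ground. Its pattern over libraries followed that of MMP1. The limma differences were -0.40 ± 0.41 between space_microg and ground (adjusted p = 0.881), 0.19 ± 0.45 between space_1g and ground (adjusted p = 1) and -0.59 ± 0.45 between space_microg and space_1g (adjusted p = 0.912). Single libraries moved these values: the first was -0.10 without ground replicate 3 and -0.71 without ground replicate 2, and the last was -0.06 without space_1g replicate 1 and -1.12 without space_1g replicate 2.

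ADAM10, on chromosome 15 from 58588807 to 58749978, codes for the sheddase of Notch receptors and VE-cadherin. It had 301, 338 and 357 CPM in space_microg, 208 and 335 CPM in space_1g, and 322, 323 and 204 CPM on the ground. Like MMP2 it was lowest in space_1g replicate 1 and ground replicate 3, and the other 6 libraries lay within 301 to 357 CPM. The limma differences were 0.26 ± 0.24 between space_microg and ground (adjusted p = 0.873), -0.07 ± 0.27 between space_1g and ground (adjusted p = 1) and 0.33 ± 0.27 between space_microg and space_1g (adjusted p = 0.912). The first was 0.04 without ground replicate 3, and the last was -0.02 without space_1g replicate 1.

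ADAM17, on chromosome 2 from 9488486 to 9556732, codes for the sheddase that releases tumour necrosis factor. It had 115, 121 and 99.7 CPM in space_microg, 129 and 100.3 CPM in space_1g, and 107, 104 and 163 CPM on the ground. It was highest where ADAM10 was lowest. The limma differences were -0.13 ± 0.20 between space_microg and ground (adjusted p = 0.919), -0.10 ± 0.23 between space_1g and ground (adjusted p = 1) and -0.03 ± 0.23 between space_microg and space_1g (adjusted p = 0.986). ADAM17 shares 1323 exon bases with IAH1 on the opposite strand, and no source used here gives the strand setting of the counting. IAH1 had 41.3 to 58.1 CPM, with its highest value in space_microg replicate 3, where ADAM17 was lowest. Among the ground libraries IAH1 was highest in replicate 3 (51.5 CPM), where ADAM17 was highest. Whether IAH1 reads entered the ADAM17 values was not tested.

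Over the 3 comparisons no gene passed. Limma called 0 of 16103 genes (0%) at an adjusted p under 0.05 between space_microg and ground, with 696 at an unadjusted p under 0.05 (4.32%), where edgeR called 0 and DESeq2 called 3, none of them among the 9. Between space_1g and ground limma called 0 (0%), with 249 at an unadjusted p under 0.05 (1.55%), and between space_microg and space_1g it called 0 (0%), with 212 (1.32%); edgeR and DESeq2 called 0 in both. Of the 9 genes, 1 did not overlap between space_microg and ground (TIMP3), against 14.4% of all genes, 2 did not between space_1g and ground (TIMP2 and TIMP3), against 10.7%, and 0 did not between space_microg and space_1g, against 14.2%. In group mean 8 of 9 were lower in space_microg than on the ground, all but ADAM10, against 53% of all genes. The median difference was -0.26 against -0.02 for all genes. Without both libraries that stand apart MMP1, MMP14, TIMP1 and ADAM17 turned to 0.02, 0.13, 0.01 and 0.08. MMP2, TIMP2, TIMP3 and ADAMTS1 stayed lower and ADAM10 stayed higher, while 50.8% of all genes were lower. With all libraries 7 of 9 were lower in space_1g than on the ground, against 48.8% of all genes. Between space_microg and space_1g 6 of 9 were lower in space_microg, against 53.4%. At an unadjusted p under 0.05 stood TIMP3 alone of the 9 in each comparison with ground, and 0 of 9 between the flight groups. The intervals show what these libraries leave possible, running from -2.55 to 0.85 for MMP1 and from -0.60 to 0.18 for TIMP2 between space_microg and ground.

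**Figure D2:**
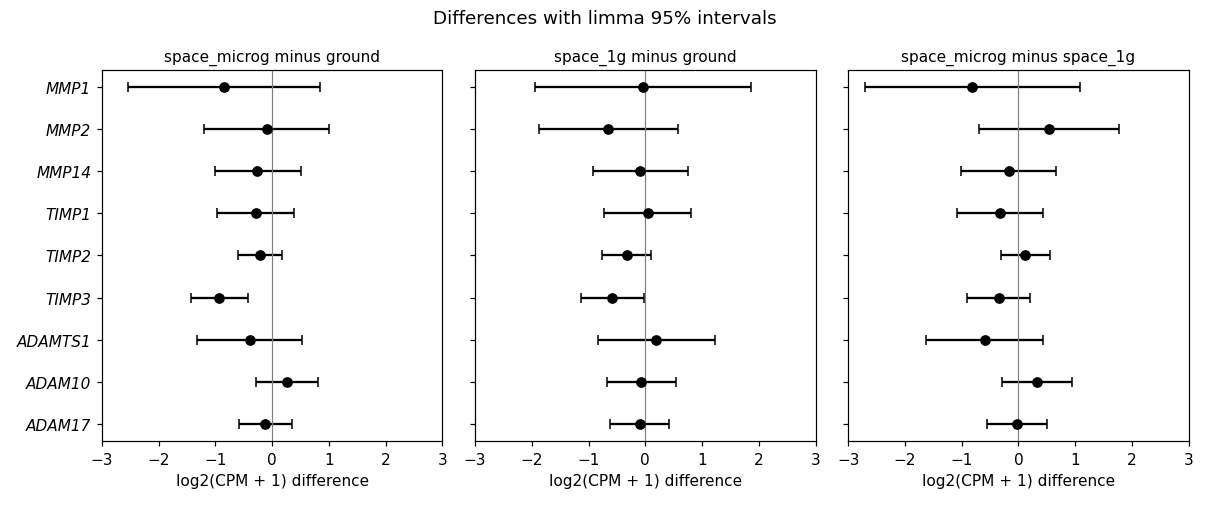
Difference in log2(CPM + 1) (horizontal axis) of each gene in the 3 comparisons, with 95% confidence intervals from limma over all 8 libraries. The TIMP3 interval runs from -1.43 to -0.43 for space_microg minus ground and from -1.14 to -0.02 for space_1g minus ground, before adjustment over all genes; the other intervals include 0.

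Most of these genes set the same 2 libraries apart. In space_1g replicate 1 and ground replicate 3, MMP1, MMP14, TIMP1, ADAMTS1 and ADAM17 were above all other 6 libraries, and MMP2 and ADAM10 were below all of them. Thus 7 of 9 lay outside the range of the other 6, with TIMP2 and TIMP3 as the exceptions. Over all genes 45.2% did so, 23.6% above and 21.5% below. This is a description of 2 libraries picked for standing apart over all genes, and no test was made of it.

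**Figure D3:**
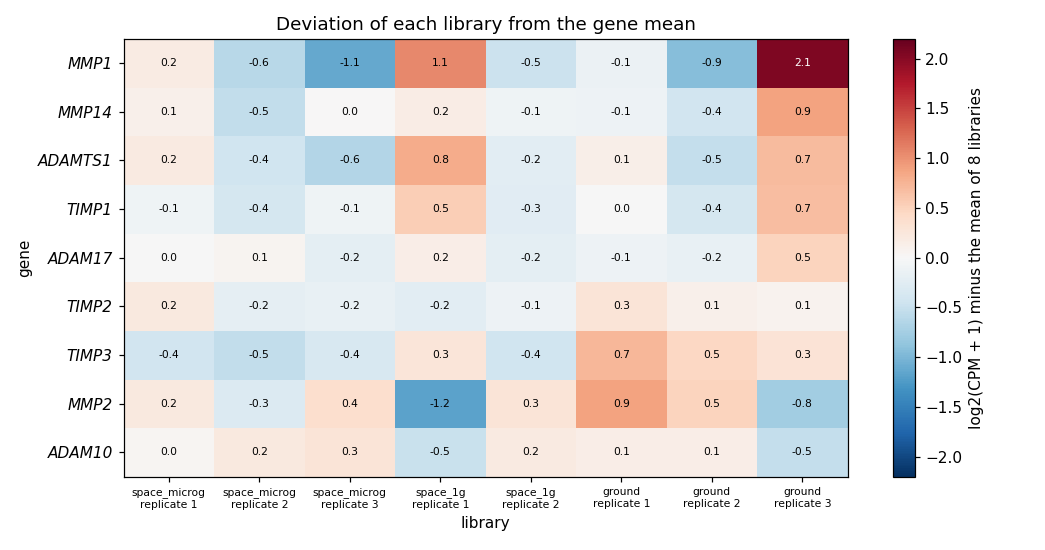
Deviation of each library (columns) from the mean of the 8 libraries, in log2(CPM + 1), for the 9 genes (rows); red is above the mean and blue below. Space_1g replicate 1 and ground replicate 3 are red for MMP1, MMP14, ADAMTS1, TIMP1 and ADAM17 and blue for MMP2 and ADAM10, while TIMP3 is blue in 4 of the 5 flight libraries and red in the 3 ground libraries.

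Within a library the ratio of 2 genes does not depend on how libraries were scaled. The ratio of MMP2 to MMP14, per kilobase, was 0.486, 0.532 and 0.581 in space_microg, 0.176 and 0.591 in space_1g, and 0.903, 0.849 and 0.142 on the ground. It was thus lowest in the 2 libraries that stand apart. In the other 6 the ground libraries were above the flight libraries, as they were for MMP2 alone. Among these 6, 33.6% of the 15571 genes tested did not overlap between space_microg and ground. No such share was computed for ratios. MMP1 to TIMP1 was 0.144, 0.0992 and 0.055 in space_microg, 0.174 and 0.1 in space_1g, and 0.109, 0.0781 and 0.315 on the ground, so TIMP1 had more RNA per kilobase than MMP1 in every library. ADAM10 to TIMP3 was 4.42, 5.42 and 5.00 in space_microg, 1.87 and 5.00 in space_1g, and 2.08, 2.53 and 1.8 on the ground. All space_microg libraries were above all ground libraries in that ratio, and space_1g replicate 1 was inside the ground range. TIMP3 alone did not overlap between space_microg and ground, as for 14.4% of all genes, while ADAM10 alone overlapped. The ratio is therefore not a result separate from that of TIMP3. ADAM17 to TIMP3 was 2.54, 2.93 and 2.10 in space_microg, 1.74 and 2.25 in space_1g, and 1.04, 1.22 and 2.16 on the ground, where ground replicate 3 overlapped with flight. ADAM10 to ADAM17 was 1.74, 1.85 and 2.38 in space_microg, 1.07 and 2.22 in space_1g, and 2.00, 2.07 and 0.832 on the ground.

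**Figure D4:**
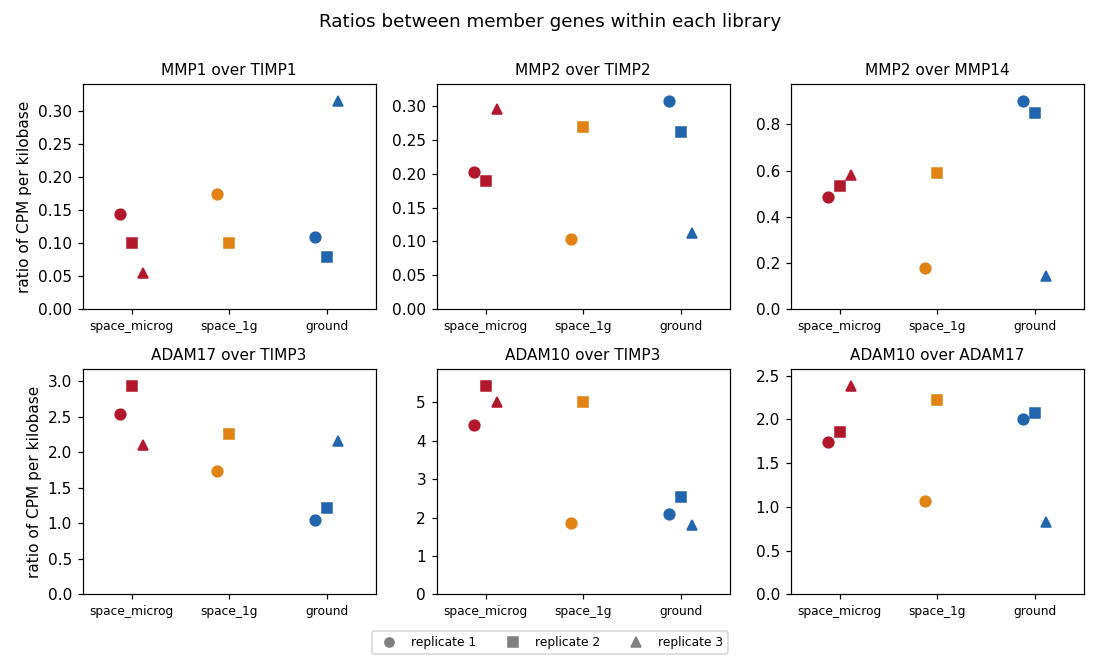
Ratios of CPM per kilobase between pairs of the genes (vertical axis, starting at 0) in each library, by group. ADAM10 over TIMP3 is 4.42 to 5.42 in space_microg and 1.8 to 2.53 on the ground, groups between which TIMP3 alone also does not overlap. MMP2 over MMP14 is lowest in space_1g replicate 1 (0.176) and ground replicate 3 (0.142).

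The genes most like a member were those with the highest Pearson r of log2(CPM + 1) over the 8 libraries, among 11393 others with a mean of at least 5 CPM. For TIMP3 these were NPR1, a natriuretic peptide receptor (r = 0.980), GSTO2 (r = 0.955) and IRF2BP2 (r = 0.944), and over the 6 libraries without those that stand apart the r values were 0.98, 0.96 and 0.94. For MMP1 they were the kinase JAK1 (r = 0.996), SNX19 (r = 0.987) and WDR47 (r = 0.987), for TIMP2 the adhesion protein VCL (r = 0.961), DLC1 (r = 0.951) and PIEZO2 (r = 0.948), and for ADAM10 FBXO5 (r = 0.998), ERI1 (r = 0.996) and LPAR6 (r = 0.996). Among members, MMP1 and ADAMTS1 had r = 0.94 over 8 libraries and r = 0.98 over the other 6. MMP1 and ADAM10 had r = -0.94 and r = -0.82. MMP2 and ADAM10 had r = 0.83 over 8 libraries but r = -0.16 over the other 6. These points share a library and its scaling, each named gene was picked as among the highest of 11393 values, and no test was made.

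Other genes of the protease system were taken from 9 lists. Of their 142 names 112 were tested, and 0 passed in any comparison in limma, in either direction. Among 7 other MMPs, the medians were -0.08 for space_microg minus ground and -0.02 for space_1g minus ground, close to those of all genes (-0.02 and 0.01). MMP15, a membrane-type relative of MMP14, differed by -0.64 ± 0.29 between space_microg and ground (limma unadjusted p = 0.0548). MMP16 was higher in all space_microg libraries (10.3, 14.0 and 14.2 CPM) than on the ground (6.12, 9.60 and 6.25 CPM), with 3.54 and 16.7 CPM in space_1g and a limma unadjusted p of 0.135 between space_microg and ground. Of 6 other inhibitors and cofactors, TIMP4, the fourth TIMP, had 9.03, 9.86 and 9.19 CPM in space_microg, 16.5 and 10.9 CPM in space_1g, and 11.5, 15.3 and 19.0 CPM on the ground. Its space_microg libraries were below all others, with a difference from ground of -0.63 ± 0.24 in limma (unadjusted p = 0.0295, not past the adjusted threshold). Groups did not overlap for 14.4% of all genes between space_microg and ground and for 14.2% between space_microg and space_1g. The membrane-bound inhibitor RECK differed by -0.03 ± 0.30 between space_microg and ground, and by -0.29 ± 0.13 without both libraries that stand apart (limma adjusted p = 0.382).

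The 11 other ADAMs had a median of -0.07 for space_microg minus ground, with ADAM9 at 558, 535 and 526 CPM in space_microg, 296 and 506 CPM in space_1g, and 457, 402 and 414 CPM on the ground. ADAM9 was higher in all space_microg libraries than on the ground, with a limma difference of 0.35 ± 0.20 (unadjusted p = 0.122). The 15 other ADAMTS and ADAMTS-like genes had a median of -0.18, and ADAMTS13, which trims von Willebrand factor, differed by -0.69 ± 0.27 between space_microg and space_1g (limma unadjusted p = 0.0306). The plasminogen system and the convertases that start the protease cascade were lower in mean in 9 of 9 genes in space_microg against ground, with a median of -0.35 against -0.02 for all genes; PCSK7 at -0.32 ± 0.17 and SERPINB2 at -0.88 ± 0.46 had groups that did not overlap. Over all genes 53% were lower in mean and 14.4% did not overlap in this comparison. The highest space_microg and lowest ground values were close, at 74.7 and 75.2 CPM for PCSK7 and at 2.31 and 2.33 CPM for SERPINB2. Ground replicate 3 was the highest ground library for SERPINB2 (2.33, 3.67 and 9.59 CPM on the ground). Without both libraries that stand apart 7 of 9 genes of the list were lower, against 50.8% of all genes, with a median of -0.13.

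Among the 10 listed partners of ADAM10 and ADAM17, 9 were lower in mean in space_microg than on the ground, against 53% of all genes. The median was -0.18, against -0.02 for all genes. Without both libraries that stand apart 7 of the 10 were lower, against 50.8% of all genes, with a median of -0.08. The tetraspanin CD9 had 366, 249 and 322 CPM in space_microg, 235 and 189 CPM in space_1g, and 332, 323 and 264 CPM on the ground. Both space_1g libraries were below all others, with limma differences of -0.53 ± 0.21 from ground (unadjusted p = 0.0349) and 0.55 ± 0.21 for space_microg minus space_1g (unadjusted p = 0.0306). Groups did not overlap for 10.7% of all genes between space_1g and ground and for 14.2% between the flight groups. RHBDF2, which escorts ADAM17, was high in space_1g replicate 1 (105 CPM) and ground replicate 3 (116 CPM), against 22.3 to 45.0 CPM in the other 6. ADAM17 was also above the other 6 in both of these libraries, as were 23.6% of all genes.

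Of 20 endothelial membrane proteins shed by ADAM10 or ADAM17, 13 were lower in mean in space_microg than on the ground, against 53% of all genes. The median was -0.10, against -0.02 for all genes. Without both libraries that stand apart 9 of the 20 were lower, against 50.8% of all genes, and the median was 0.23. The Notch ligand DLL4 had 3.96, 2.60 and 4.13 CPM in space_microg, 4.16 and 4.95 CPM in space_1g, and 6.55, 7.17 and 7.23 CPM on the ground. All flight libraries were below all ground libraries, and groups did not overlap for 14.4% of all genes between space_microg and ground and for 10.7% between space_1g and ground. DLL4 had a limma difference of -0.82 ± 0.22 between space_microg and ground (unadjusted p = 0.00496). The VEGF receptor KDR, which is also 1 of the 14 endothelial markers and whose access to VEGF is known to be blocked by TIMP3, had 147, 119.7 and 114 CPM in space_microg, 158 and 99.2 CPM in space_1g, and 176, 164 and 194 CPM on the ground, also without overlap. Its limma differences from ground were -0.49 ± 0.20 in space_microg (unadjusted p = 0.0355) and -0.50 ± 0.22 in space_1g (unadjusted p = 0.0485). CXCL16, a membrane-bound chemokine named here after its values were seen, was separated in the other direction in both flight groups, by 0.59 in space_microg and 0.52 in space_1g relative to ground (limma unadjusted p = 0.0623 and 0.127).

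The 13 AP-1 and ETS factors, which act on MMP promoters, had a median of -0.29 for space_microg minus ground, 0.28 for space_1g minus ground and -0.71 for space_microg minus space_1g, where 12 of 13 were lower in mean, against 53.4% of all genes. Space_1g replicate 1 stood over replicate 2 for FOSL2 (228 and 99.5 CPM) and ETS2 (70.2 and 36.7 CPM), and replicate 2 lay below all space_microg libraries for both. Without both libraries that stand apart, which leaves a single space_1g library, 4 of 13 were lower in space_microg than in space_1g. Of all genes 51.1% were lower, and the median of the 13 was 0.07. FOS had 6.78, 6.86 and 7.85 CPM in space_microg, 17.4 and 10.3 CPM in space_1g, and 10.4, 8.77 and 10.5 CPM on the ground. Its space_microg libraries were below all others, with a limma difference of -0.82 ± 0.26 from space_1g (unadjusted p = 0.0117). Groups did not overlap for 14.4% of all genes between space_microg and ground and for 14.2% between the flight groups. The FOS difference from space_1g was -0.47 without both libraries that stand apart, where a single space_1g library is left. Among 21 matrix substrates the median was -0.09 for space_microg minus ground and -0.21 for space_1g minus ground. The medians of all genes were -0.02 and 0.01. In these comparisons 15 and 18 of the 21 were lower in mean, against 53% and 48.8% of all genes. The basement membrane collagen COL4A1 differed by -0.41 ± 0.19 and -0.42 ± 0.21. Without both libraries that stand apart 18 of 21 were lower in space_microg than on the ground, against 50.8% of all genes. The median was then -0.24. For space_1g minus ground, with a single space_1g library left, 14 of 21 were lower, against 48.7% of all genes, and the median was -0.19.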

How the data were processed

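RNA from 8 libraries of HMEC-1 cells was analysed in 3 groups. The authors deposited 1 table of normalised signal, which the labels call CPM. The submitters' processing notes name, without roles, edgeR, featureCounts, STAR 2.5.3, FastQC and CASAVA 1.8.2, and the builds GRCh38 and hg38. In every library 100% of values were whole multiples, within 1e-06 read, of what 1 read is worth (0.0285 to 0.0398 CPM), and columns sum to 966156 to 1061177. Libraries were prepared by ribosomal RNA depletion with a stranded kit, per the labels' protocols.

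Genes that reached 1 CPM in 2 or more libraries were kept (16103), and log2(CPM + 1) was tested. One two-sided limma 3.58.1 model (R 4.3.3, mean trend) took in the 8 libraries, and p-values were Benjamini-Hochberg adjusted over all genes. Steps were tested on simulated data. The edgeR 4.0.16 quasi-likelihood test and DESeq2 1.42.0 were run on the recovered reads as alternatives; edgeR called 0 genes in each comparison. The test was planned for CPM and kept for this scaled signal.

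All members with a row are named; of each list up to 4 genes with the smallest unadjusted p in any comparison could be named (mean of at least 1 CPM), and up to 3 genes most like each member. Values of the lists without the 2 libraries that stand apart were added after seeing the data. Members and lists were chosen with earlier results of these data known. Positions are those of GENCODE v29. Libraries of 1 group differed beyond counting noise (chi-square per degree of freedom 19.3 to 205), so none was merged.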

Additional observations from a re-analysis of the deposited data

How the results depend on the processing

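The lowest count of a member in a library was 89 reads. Alternatives were pseudocounts of 0.25 and 4, no filter or 5 CPM, median-of-ratios, quantile or plain-total scaling, only the 2 groups compared, no mean trend, array weights, the replicate block, edgeR, DESeq2, each library left out, and both libraries that stand apart left out. The count of genes called between space_microg and ground was 0 in all of these but 2, with 615 under array weights, whose estimation did not converge, and 3 under DESeq2; in the other comparisons it was 0 throughout. Array weights called 1 of the 27 differences of the 9 genes, TIMP3. The replicate block left all calls at 0 (1013, 759 and 850 genes at an unadjusted p under 0.05 in the order space_microg against ground, space_1g against ground, space_microg against space_1g). Without the block these counts were 696, 249 and 212. Whether same-numbered libraries form pairs was left undecided. Deviations from the group mean had r from -0.68 to 0.68 for libraries of the same number and from -0.72 to 0.72 for the rest. These r values cannot decide it, because the deviations of the 2 space_1g libraries mirror each other by construction. The scalings and pseudocounts turned no direction.

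Of the 27 differences, 7 kept their direction in all alternatives. Without both libraries that stand apart the direction turned, between space_microg and ground, for MMP1 (0.02), MMP14 (0.13), TIMP1 (0.01) and ADAM17 (0.08); between space_1g and ground for MMP1 (0.06), MMP14 (0.17), TIMP1 (-0.06), ADAMTS1 (-0.03) and ADAM10 (0.05); and between space_microg and space_1g for MMP2 (-0.19), TIMP1 (0.07), TIMP3 (0.0021), ADAM10 (-0.02) and ADAM17 (0.15). Array weights turned MMP14 (0.05), ADAM10 (-0.0023) and ADAM17 (0.07) between space_microg and ground, and MMP1 (0.43), MMP14 (0.14) and ADAM17 (0.08) between space_1g and ground. The replicate block, in which the pairing is by number, turned MMP1 (0.24) and MMP14 (0.14) between space_1g and ground. The cause was not tested.

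With single libraries left out, differences between space_microg and ground ran from -1.48 to 0.02 for MMP1, -0.59 to 0.24 for MMP2, -0.53 to 0.13 for MMP14, -0.53 to 0.01 for TIMP1, -0.71 to -0.10 for ADAMTS1, 0.04 to 0.37 for ADAM10 and -0.24 to 0.08 for ADAM17. Between space_1g and ground they ran from -0.80 to 0.83 for MMP1, -1.38 to 0.09 for MMP2, -0.36 to 0.30 for MMP14, -0.35 to 0.44 for TIMP1, -0.33 to 0.72 for ADAMTS1, -0.41 to 0.27 for ADAM10 and -0.28 to 0.11 for ADAM17. Between space_microg and space_1g they ran from -0.19 to 1.28 for MMP2, -0.30 to 0.03 for MMP14, -0.72 to 0.07 for TIMP1, -0.01 to 0.20 for TIMP2, -0.70 to 0.0021 for TIMP3, -1.12 to -0.06 for ADAMTS1, -0.02 to 0.67 for ADAM10 and -0.21 to 0.15 for ADAM17. Where a space_1g library was removed, the spread of the single one remaining was taken from the other groups. TIMP3 stayed lower than ground in both flight groups in all alternatives, from -1.15 to -0.81 in space_microg and from -1.03 to -0.23 in space_1g.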
